A study of Mus musculus with 18 samples.

Results

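Cell division genes were described as 36 genes in 2 groups. The first held 20 genes of G2 and mitosis, from the cyclin B genes to the spindle motors, and the second 16 genes of DNA replication in S phase, from the MCM helicase to the ribonucleotide reductase genes. Members were the rows with these symbols in the authors' deposited tables of DESeq2 results, and all 36 were found in both, among 14423 genes for bone marrow and 21830 for spleen. Every member had a mean normalized count of at least 20 in both, so none was lost to a filter on low values. RNA had been taken from suspended cells of C57BL/6 mice and read by QuantSeq, which counts tags at the polyadenylated 3' end of a transcript. Bone marrow was compared between 4 libraries of Cgas-/- mice, which lack the DNA sensor cGAS, and 4 of Trex1-/-;Sting1gt/gt mice, called dKO, which lack the exonuclease TREX1 and carry the goldenticket allele of the cGAMP receptor STING. Spleen was taken from irradiated dKO mice 12 weeks after transplantation, 5 with Cgas-/- marrow and 5 with dKO marrow, so any host cell left in a spleen was dKO in both groups. The labels give neither age nor sex, name no wild-type group, and do not tell whether every library is a mouse of its own. The p-values therefore rest on the spread between libraries alone, which may be technical.

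The labels were checked first. In the authors' deposited tables, Trex1 was higher in the Cgas-/- group of bone marrow (log2 fold change 1.45) and of spleen (2.71), and Cgas, listed as Mb21d1 for spleen, was lower (-1.13 and -0.92), each past an adjusted p of 0.05 by DESeq2. Tags outside the deleted part of a gene can still be counted, so these genes need not be at 0. Neutrophil precursor markers lay at a median percentile of 99.8 by level in the bone marrow table, and mature B cell markers at 97.9 in the spleen table, among 10051 genes with a mean of at least 20 in both. Fold changes below are Cgas-/- over dKO, or Cgas-/- marrow over dKO marrow, on the log2 scale, with ± for the standard error. Values per library were not used here and library depth is unknown. The mean normalized count of a gene is the authors' mean over both groups, without an SD.

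A dividing cell loads the MCM helicase onto replication origins in G1, copies its DNA in S phase, and separates the copies in mitosis, driven by cyclins and their kinases. The genes of each step are transcribed in turn: E2F factors act on promoters of S phase genes, while the MuvB complex acts on promoters of mitosis genes through a short element called the CHR, often beside CCAAT boxes bound by NF-Y. In bone marrow most dividing cells are erythroid, myeloid and B lymphoid precursors. In adult spleen division takes place among erythroid and myeloid precursors of the red pulp and among activated lymphocytes, most of all in germinal centres.

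The promoters of the 2 groups carried different elements, which the choice of members had not used. RefSeq promoters (GRCm38.p6, from 250 bases before to 50 bases after an annotated start) matched 30 members by symbol, 17 of mitosis and 13 of S phase. Searched on both strands, with overlapping matches allowed and a gene counted when any of its promoters matched, the CHR element TTTGAA was found in 12 of 17 mitosis promoters (70.6%) and 1 of 13 S phase promoters (7.69%), against 20.2% of all 27025 genes with a promoter and 14.4% of the 7798 with a mean of at least 20 in both tables. Within 50 bases of the start it was found in 11 of 17 mitosis members (64.7%), 0 of 13 S phase members and 5.72% of all genes. The E2F site, searched as TTTCCCGC, TTTCGCGC, TTTGCCGC and TTTGGCGC, had the reverse distribution, with 7 of 13 S phase promoters (53.8%) and 1 of 17 mitosis promoters (5.88%, that of Cdk1), against 2.61% of all genes and 4.83% of those with a mean of at least 20. CCAAT was found in 15 of 17 mitosis and 9 of 13 S phase promoters, against 41.1% of all genes, and all 12 mitosis promoters with a CHR also held a CCAAT. Longer lists of other mitosis and replication genes were divided in the same direction but less sharply. A CHR was in 37 of 55 (67.3%) and 8 of 39 (20.5%), against 20.2% of all genes. An E2F site was in 7 of 55 (12.7%) and 13 of 39 (33.3%), both above the 2.61% of all genes. A match is a description of these letters in this window and not a measured binding site.

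Mitosis promoters with a CHR in the last 50 bases before the start show how closely the elements are spaced. Each stretch below is 80 bases, read 5' to 3' along the gene and ending 1 base before the annotated start, with matches to the CHR and to CCAAT in capitals, where an opposite-strand CHR reads TTCAAA and an opposite-strand CCAAT reads ATTGG.
Top2a, chr11:99024190-99024269, minus strand: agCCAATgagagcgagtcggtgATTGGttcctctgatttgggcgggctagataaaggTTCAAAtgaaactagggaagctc
Cdk1, chr10:69352913-69352992, minus strand: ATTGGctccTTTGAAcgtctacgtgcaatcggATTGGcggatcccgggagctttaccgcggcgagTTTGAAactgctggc
Cdc20, chr4:118437344-118437423, minus strand: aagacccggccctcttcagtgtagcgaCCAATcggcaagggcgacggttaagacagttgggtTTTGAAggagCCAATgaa
Kif11, chr19:37376302-37376381, plus strand: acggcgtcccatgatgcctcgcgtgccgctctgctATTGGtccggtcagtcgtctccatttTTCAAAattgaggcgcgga

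S phase promoters with an E2F site before the start are shown for contrast, 80 bases each, taken from around the site within the window before the start, with E2F and CCAAT matches in capitals. Mcm5 holds a pair of E2F matches on opposite strands that overlap, and Cdc6 and Mcm7 hold TTTCCCGC on the opposite strand, which reads GCGGGAAA here. The Uhrf1 stretch comes from the promoter of a downstream annotated start, and the promoter of its earlier start held no E2F match. Mcm7 also had a further promoter without an E2F match, which is not shown.
Mcm5, chr8:75109324-75109403, plus strand: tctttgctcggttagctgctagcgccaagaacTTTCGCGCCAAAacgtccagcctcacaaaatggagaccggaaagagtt
Mcm6, chr1:128359709-128359788, minus strand: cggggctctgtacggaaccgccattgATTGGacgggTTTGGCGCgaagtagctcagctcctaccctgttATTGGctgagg
Mcm7, chr5:138172005-138172084, minus strand: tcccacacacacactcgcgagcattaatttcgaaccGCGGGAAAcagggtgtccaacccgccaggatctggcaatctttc
Cdc6, chr11:98907977-98908056, plus strand: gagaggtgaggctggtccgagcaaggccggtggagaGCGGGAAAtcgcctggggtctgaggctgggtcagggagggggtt
Uhrf1, chr17:56304092-56304171, plus strand: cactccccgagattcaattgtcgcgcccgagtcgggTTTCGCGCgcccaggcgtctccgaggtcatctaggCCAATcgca

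The levels of the 2 groups stood differently in the 2 tissues. QuantSeq gives tags per transcript and not per length, so mean normalized counts were set beside each other within a table, and tables were compared only by rank because they were normalized separately. For bone marrow the authors' deposited table gave a median member mean of 898 for mitosis and 718 for S phase, a ratio of S phase to mitosis of 0.799. In the authors' deposited table for spleen the medians were 90.8 and 234, a ratio of 2.58. By percentile among the 10051 genes with a mean of at least 20 in both tables, the median mitosis member stood at 84.9 in bone marrow and 30.0 in spleen, and the median S phase member at 80.6 and 59.2. All 20 mitosis members ranked lower in spleen than in bone marrow, as did 13 of 16 S phase members. The 3 that ranked higher in spleen were Mcm4, a subunit of the helicase (79.7 and 88.7), Cdt1, which loads it (80.4 and 84.6), and Gins2, which joins it at firing (65.8 and 79.1). The 3' end of Gins2 overlaps an exon of Gse1 on the other strand. As the strand setting of the counting is not given, tags of these genes may not be fully separated. Mki67, the gene of the proliferation marker Ki-67, stood at 97.1 in bone marrow and 37.2 in spleen, and Top2a, the topoisomerase that untangles sister chromatids, at 98.9 and 79.4. Bub1, a checkpoint kinase gene, had the lowest rank in spleen, 0.129, with a mean normalized count of 20.2 in the authors' deposited table. Ranks exist only for genes past the mean of 20 in both tables, which leaves out the lowest genes of longer lists. The 54 of 66 other mitosis genes with a rank had a median percentile of 70.2 in bone marrow and 15.8 in spleen, and the 42 of 47 other replication genes had 61.2 and 40.0. These ranks describe 2 separate fits with no library in common, and no test of them was made. The spleens came from irradiated and transplanted mice and the bone marrow did not, so tissue cannot be told apart from transplantation. Fewer dividing cells and less RNA per dividing cell cannot be told apart in bulk libraries, here or below.

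**Figure D1:**
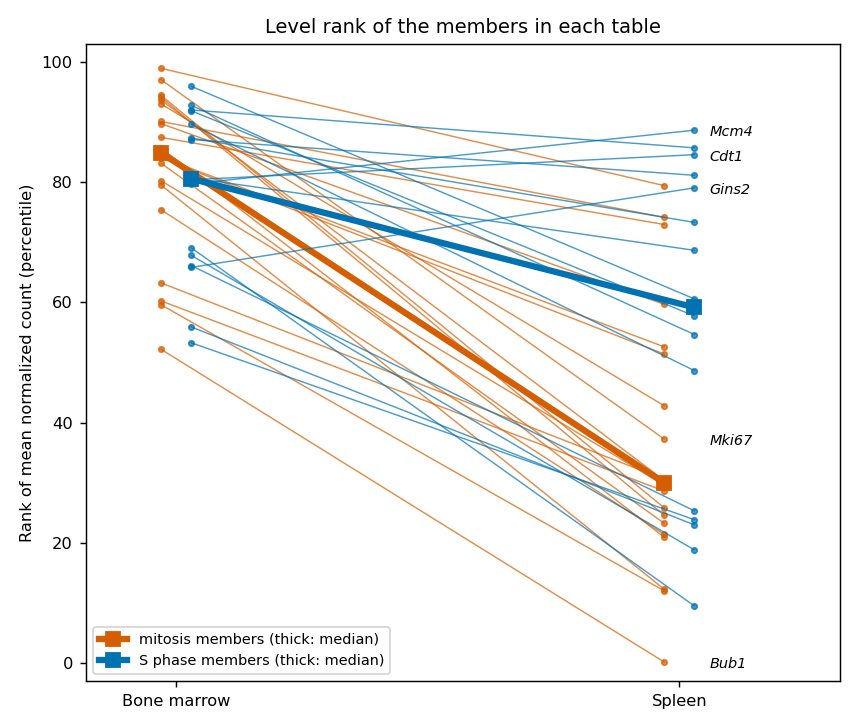
Percentile rank of each member's mean normalized count (vertical axis) among 10051 genes, in the bone marrow and the spleen table (horizontal axis); thin lines join the values of a gene and thick lines the group medians. The medians are 84.9 and 80.6 in bone marrow, close together, and 30.0 (mitosis) and 59.2 (S phase) in spleen, where the groups separate.

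In bone marrow, no cell division gene differed between the genotypes past the test. By the authors' deposited table, 0 of 36 members passed a DESeq2 adjusted p of 0.05, where 0.534% of all genes did, and 3 of 36 (8.33%) had an unadjusted p under 0.05, where 8.85% of all genes and 9.6% of those with a mean of at least 20 did. Of these 3, Mcm7 and Uhrf1 were higher and Cdk1 lower, where 4.19% of all genes were higher and 4.65% lower. The counts at both levels were near the background. The smallest DESeq2 adjusted p was 0.149, for Mcm7. The fold changes were narrow, from -0.20 (Cdk1) to 0.25 (Uhrf1), with a median absolute value of 0.0568 in the authors' deposited table, against 0.124 for all genes with a mean of at least 20. Those genes are no match in level, with a median mean normalized count of 187 against 860 for the members.

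The precision in bone marrow was high enough to bound the differences. The standard errors of the members ran from 0.0770 to 0.156 in the authors' deposited table, and the 95% interval of every member lay within 0.5 of 0 on the log2 scale, that is within 1.41-fold, where 54.2% of all genes with a mean of at least 20 had such an interval. The smallest absolute Wald statistic (the fold change over its standard error) that was called in this table was 3.65, so a member needed a log2 fold change between 0.28 (Mcm7) and 0.57 (Gins2) to pass. A difference smaller than this was not detectable here as a call.

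Among mitosis genes in bone marrow, the markers of dividing cells were at 0 within their error. Mki67 had a log2 fold change of -0.0024 ± 0.0957 with a mean normalized count of 3298 in the authors' deposited table, and Top2a 0.04 ± 0.0809 with a mean of 7004. Of the cyclin genes that drive mitotic entry, Ccna2 was at 0.00026 ± 0.0964, Ccnb1 at -0.08 ± 0.0954 and Ccnb2 at -0.06 ± 0.111 in the authors' deposited table. Cdk1, the kinase they activate, was at -0.20 ± 0.0941, a fold of 0.872 with a 95% interval of 0.768 to 0.991, and its unadjusted p of 0.0363 became 0.511 after adjustment (DESeq2, authors' deposited table). Cdk1 was thus the 1 mitosis member whose interval left out 0. Cdc20, which activates the anaphase-promoting complex, was at 0.09 ± 0.0953 in the authors' deposited table.

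The remaining mitosis genes lay on both sides of 0. The kinase genes Aurka, Aurkb and Plk1, which build the spindle and correct its attachments, were at -0.02, -0.03 and 0.05 in the authors' deposited table, and Birc5, the survivin subunit of the passenger complex, at 0.03. Bub1 and Bub1b, kinases of the spindle checkpoint, were at -0.04 and 0.07 in the authors' deposited table. Cenpa, the histone H3 variant that marks centromeres, had the highest value of the group at 0.14 ± 0.0793 (DESeq2 adjusted p = 0.628, authors' deposited table), while the kinetochore genes Cenpe and Cenpf were at -0.05 and -0.03. The motor genes Kif11 and Kif23, the microtubule nucleator gene Tpx2 and the spindle gene Nusap1 ranged from -0.10 to 0.06 in the authors' deposited table.

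S phase genes in bone marrow held the 2 members with the highest values. Mcm7, a subunit of the hexameric MCM helicase, was at 0.24 ± 0.0770 in the authors' deposited table, a fold of 1.18 with a 95% interval of 1.06 to 1.31 (p = 0.00174, DESeq2 adjusted p = 0.149). The other 5 subunits, Mcm2 to Mcm6, ranged from -0.09 to 0.08 in the authors' deposited table with standard errors of 0.0792 to 0.102. Mcm7 was thus the 1 subunit whose interval left out 0. The 3' end of Mcm7 overlaps an exon of Cops6 on the other strand, and as the strand setting of the authors' counting is not given in the sources used here, tags of these genes may not be fully separated. Uhrf1, which brings the maintenance DNA methyltransferase to the fork, was at 0.25 ± 0.119, with a 95% interval of 0.01 to 0.48 and a DESeq2 adjusted p of 0.515 as the authors deposited it, and Pcna, the sliding clamp, at 0.07 ± 0.0849.

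Genes that license origins, make deoxynucleotides or drive the G1 to S transition had no call either. Cdc6 and Cdt1, which load the helicase, were at 0.10 ± 0.129 and 0.02 ± 0.0996 in the authors' deposited table, and Gins2 at -0.0035 ± 0.156. The large subunit gene of ribonucleotide reductase, Rrm1, was at 0.15 ± 0.0875 and the small subunit gene, Rrm2, at -0.14 ± 0.0873 in the authors' deposited table. Tyms, the thymidylate synthase gene, was at -0.09 ± 0.107, and the cyclin E genes Ccne1 and Ccne2 at -0.01 ± 0.155 and 0.20 ± 0.141 in the authors' deposited table.

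**Figure D2:**
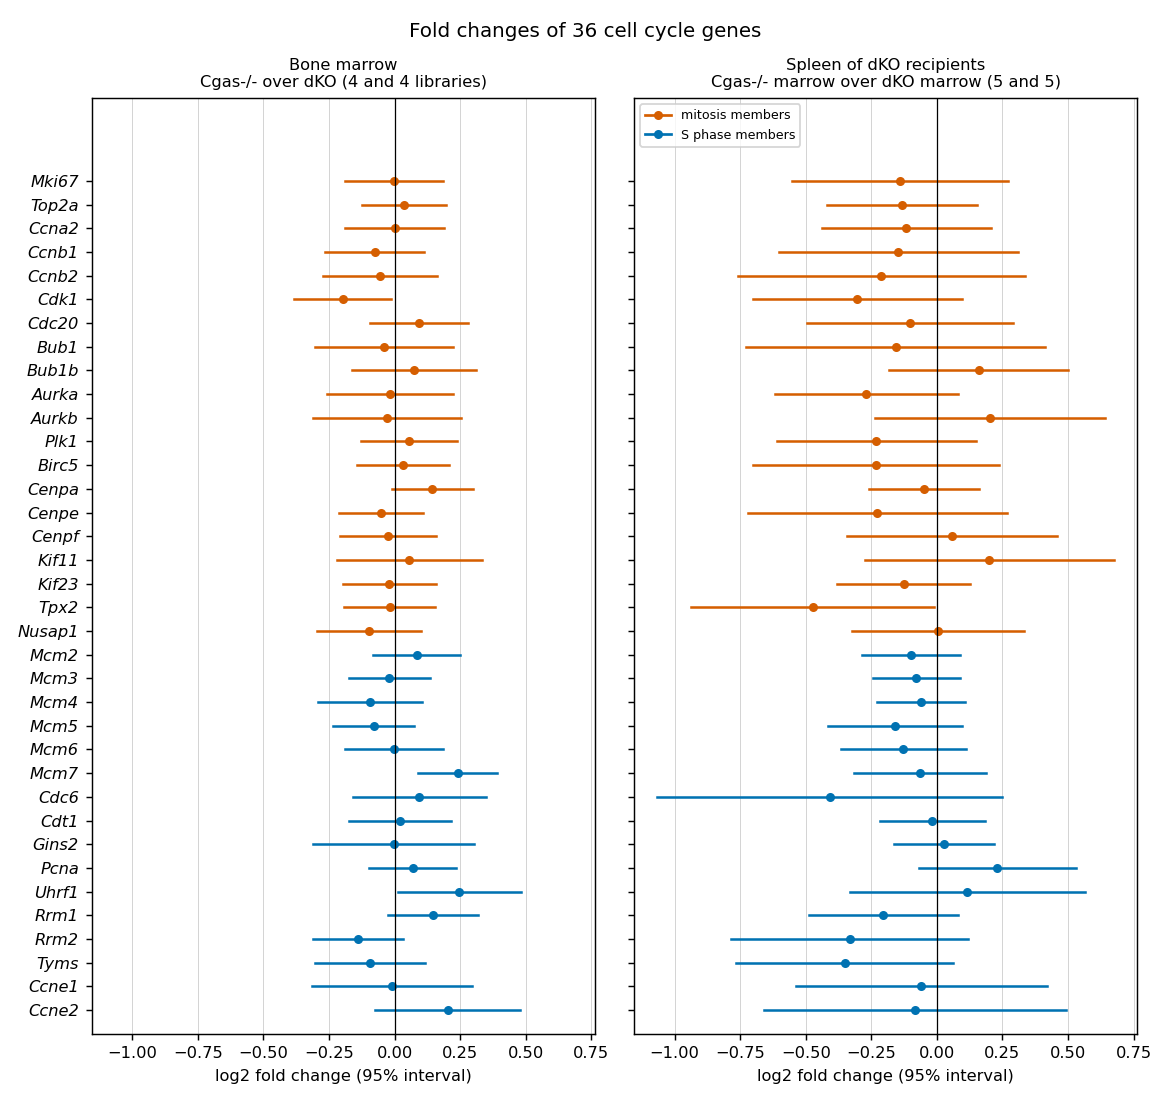
Log2 fold change (horizontal axis) with its 95% interval for each of the 36 members (vertical axis), from the authors' deposited tables, with bone marrow on the left and spleen on the right; points are estimates and lines the intervals. In bone marrow all intervals stay within 0.5 of 0, against 54.2% of all genes with a mean of at least 20. In spleen 16 of 36 (44.4%) do, against 69.4% of such genes, and most points lie left of 0.

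In spleen, cell division genes lay mostly below 0 in recipients of Cgas-/- marrow, and none passed the test. By the authors' deposited table, 0 of 36 members passed a DESeq2 adjusted p of 0.05, where 0.133% of all genes did, and 1 of 36 (2.78%) had an unadjusted p under 0.05, where 3.02% of all genes and 3.61% of those with a mean of at least 20 did. This 1 was lower, where 1.17% of all genes were higher and 1.85% lower. The fold change was below 0 for 28 of 36 members (77.8%), 15 of 20 mitosis and 13 of 16 S phase genes, against 48.0% of all genes with a mean of at least 20. The members' median was -0.12, and that of all genes with a mean of at least 20 was 0.0057. Genes of 1 program vary together across libraries, so the count of members below 0 is not a count of independent differences.

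Mitosis genes in spleen had wide intervals. Tpx2 had the lowest value of all members, -0.47 ± 0.236, a fold of 0.720 with a 95% interval of 0.522 to 0.993, and the authors' deposited table gave it a DESeq2 adjusted p of 0.999997, as for all members. Next were Cdk1 at -0.30 ± 0.203 and Aurka at -0.27 ± 0.178 in the authors' deposited table. Birc5 and Plk1 were both at -0.23, Cenpe was at -0.23, and Ccnb2 at -0.21. Mki67 (-0.14 ± 0.210), Top2a (-0.13 ± 0.146), Ccna2 (-0.12 ± 0.164), Ccnb1 (-0.15 ± 0.233) and Cdc20 (-0.10 ± 0.200) were close to each other in the authors' deposited table. All 5 genes of the cyclin, Cdk1 and Cdc20 group were thus below 0, with each interval reaching above it.

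A minority of mitosis genes in spleen was above 0. Aurkb was at 0.20 ± 0.223, Kif11 at 0.20 ± 0.243 and Bub1b at 0.16 ± 0.174 in the authors' deposited table, while Cenpf (0.06) and Nusap1 (0.0035) were near 0. Aurkb and its partner Birc5, subunits of 1 complex, had estimates on opposite sides of 0 with overlapping intervals.

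S phase genes in spleen were mostly below 0. All 6 MCM genes were below 0 in a tight range, from -0.16 ± 0.130 (Mcm5) to -0.06 ± 0.0853 (Mcm4), and each of their 95% intervals lay within 0.5 of 0 in the authors' deposited table. Such an interval was found for 69.4% of all genes with a mean of at least 20 in spleen, and for 44.4% of all members. The 3 deoxynucleotide genes had lower estimates whose intervals cover the MCM values, at -0.35 ± 0.212 for Tyms, -0.33 ± 0.231 for Rrm2 and -0.20 ± 0.145 for Rrm1 in the authors' deposited table. Cdc6 was lowest of the S phase group at -0.41 ± 0.336, with a 95% interval from -1.07 to 0.25, while its partner Cdt1 was at -0.02 ± 0.101 in the authors' deposited table. Pcna (0.23 ± 0.153) and Uhrf1 (0.12 ± 0.229) were above 0 in the authors' deposited table, as was Gins2 (0.03 ± 0.0969), and Ccne1 and Ccne2 were at -0.06 and -0.08. Uhrf1 and Pcna were also above 0 in bone marrow.

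The phases were set side by side by their medians, with no test of the difference. The median S phase member was at 0.0080 and the median mitosis member at -0.018 in bone marrow, and at -0.08 and -0.14 in spleen, from the authors' deposited tables. S phase exceeded mitosis by 0.03 and 0.06. The standard error of a typical member was 0.0954 in bone marrow and 0.197 in spleen. That is the error of 1 gene and does not measure the error of a difference between medians. The fold changes were also set beside the promoter elements, again as a description. The 12 mitosis members with a CHR had a median of 0.02 in bone marrow and -0.13 in spleen, and the 5 without had -0.05 and -0.16. For the E2F site, the 7 S phase members with a match had 0.02 and -0.08, and the 6 without had 0.03 and -0.15.

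The difference between the tissues, spleen minus bone marrow, was tested for 13837 genes as the difference of the authors' estimates divided by the standard error of that difference (both tables' errors added in quadrature), with a two-sided normal p and Benjamini-Hochberg adjustment. No member passed (0 of 36, where 0.0578% of all genes did), and 2 of 36 (5.56%) had an unadjusted p under 0.05, where 4.83% of all genes did. Both were lower in spleen, as were 2.6% of all genes. They were Rrm1, with a difference of -0.35 (95% interval -0.68 to -0.02, adjusted p = 0.984 from this normal test on DESeq2 estimates), and Mcm7, with -0.31 (-0.60 to -0.01, adjusted p = 0.984 from the same test). Both were above 0 in bone marrow and below it in spleen. The estimate was lower in spleen than in bone marrow for 28 of 36 members, and the interval of 35 of 36 members lay within 1 of 0. The shares of all genes for these counts were not computed. The median difference was -0.13 in the S phase group and -0.13 in the mitosis group. Over the 10051 genes with a mean of at least 20 in both, it was 0.0038. Across the 36 members the fold changes of the tissues had a Pearson correlation of 0.31 and a Spearman correlation of 0.30, against 0.23 and 0.08 across the genes with a mean of at least 20 in both tables. The comparisons share no library, but genes of 1 program are not independent points. Tissue and transplantation cannot be told apart here either, since only the spleens came from transplanted mice.

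The standard errors of most members in spleen were above those of genes of like mean, a description with no test. Each standard error was divided by the median of the 200 genes nearest in mean normalized count in the same table. In bone marrow the median ratio was 0.998 for S phase and 1.001 for mitosis, with 18 of 36 members above their neighbours. In spleen it was 1.26 and 1.24, with 31 of 36 members above. This was not particular to the members: T cell (1.401), plasma cell (1.43) and germinal centre B cell (1.47) markers had higher ratios there. Further genes of the same program were nearer their neighbours, at 1.003 for other replication genes (25 of 47 above), 1.08 for other mitosis genes (48 of 66 above) and 0.983 for RB, E2F and MuvB genes. The ratio in spleen was highest for Birc5 (2.49), Cdc6 (1.87), Rrm2 (1.83) and Cdk1 (1.78), while Mcm2 and Mcm3 were at 0.926 and 0.949. The MCM group as a whole was at 1.07 and the deoxynucleotide genes at 1.31. On the assumption of equal library sizes, the standard error gives a coefficient of variation between libraries beyond counting error. Its median was 8.91% for S phase and 8.79% for mitosis members in bone marrow, and 13.9% and 19.6% in spleen. The range in spleen ran from 8.46% (Mcm3) to 34.9% (Cdc6). These values rest on the dispersions that DESeq2 shares between genes, and they do not show in which group or library the spread lay.

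**Figure D3:**
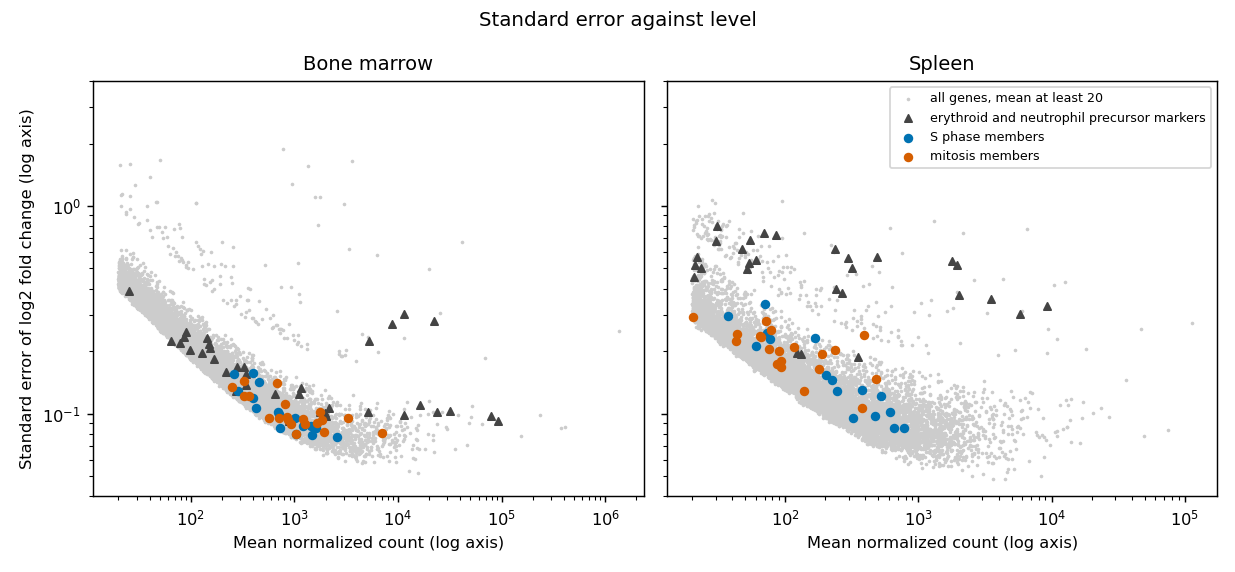
Standard error of the log2 fold change (vertical log axis) against mean normalized count (horizontal log axis) for all genes with a mean of at least 20 (grey), members (coloured dots) and erythroid and neutrophil precursor markers (triangles), by table. In bone marrow the members lie in the middle of the grey band, and in spleen 31 of 36 lie above the median of their neighbours, with the markers higher still.

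Markers of 2 precursor lists, erythroid and neutrophil, had the lowest medians in spleen. There, all 24 listed erythroid markers (of 26 looked for) were below 0, with a median of -0.96 in the authors' deposited table, and their standard errors were 2.73 times those of genes of like mean. All 12 neutrophil precursor markers were below 0 as well, with a median of -0.62 and a ratio of 2.65, and 0 of these 36 markers passed a DESeq2 adjusted p of 0.05. Of the other lists there, 9 of 11 B cell progenitor markers were above 0 (median 0.12), 3 of 12 haematopoietic progenitor markers (median -0.07) and 7 of 7 germinal centre B cell markers (median 0.17), again from the authors' deposited table. In bone marrow, 22 of 24 erythroid markers were above 0 (median 0.29, 1 called, the globin gene Hbb-bt), as were 12 of 14 B cell progenitor markers (median 0.26, 1 called, Dntt) and 10 of 12 haematopoietic progenitor markers (median 0.27, 1 called, Flt3) in the authors' deposited table. Neutrophil precursor markers there had a median of -0.07, with 11 of 12 below 0. Monocyte markers held the most calls, with 9 of 11 below 0 (median -0.34) and 4 called lower (Ly6c2, Csf1r, Ms4a4c and Cd300e) by the authors' deposited table. Of all genes in bone marrow, 0.534% were called, 49.5% were above 0 and 50.5% below. In spleen a mean of at least 20 was reached by 20 of 24 erythroid, 8 of 12 neutrophil precursor and 8 of 11 B cell progenitor markers. It was reached there by 5 of 12 haematopoietic progenitor and 7 of 7 germinal centre B cell markers. In bone marrow 10 of 12 haematopoietic progenitor markers reached it. The counts above and below 0 thus include genes with low means, most of all for haematopoietic progenitor markers in spleen. The part of cell type shifts in the values of the division genes was not tested.

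Further genes of the pathway, 145 in 5 lists, held no call in either tissue by the authors' deposited tables, where 0.534% and 0.133% of all genes were called. Of 47 other replication genes, 26 were above 0 in bone marrow (median 0.01) and 19 in spleen (median -0.02). At an unadjusted p under 0.05 by the bone marrow values of the authors' deposited tables, 5 of 47 were higher and 1 lower, where 4.19% and 4.65% of all genes were, among them the DNA ligase gene Lig1 at 0.16 ± 0.0688 (DESeq2 adjusted p = 0.382), and in spleen 1 was lower, the primase subunit gene Prim2 at -0.47 ± 0.198. Of 66 other mitosis genes, 34 were above 0 in bone marrow (median 0.01) and 18 in spleen (median -0.12), so 48 of 66 lay below 0 in spleen. At an unadjusted p under 0.05, 3 were higher and 1 lower in bone marrow, and 1 was lower in spleen. Cks2, a small subunit that binds cyclin-dependent kinases, was at 0.19 ± 0.07 in bone marrow (DESeq2 adjusted p = 0.247), and Esco2, a cohesin acetyltransferase gene, at -0.62 ± 0.309 in spleen (DESeq2 adjusted p = 0.999997), both in the authors' deposited tables.

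The regulators of the program held no call. RB, E2F and MuvB genes had medians of 0.0016 in bone marrow and -0.03 in spleen over 19 genes. E2f2, an activator of the family, was at -0.23 ± 0.097 in bone marrow (DESeq2 adjusted p = 0.387, authors' deposited table). E2f8, a repressor that limits E2F targets late in S phase, was at 0.25 ± 0.103 in bone marrow (p = 0.0132, DESeq2 adjusted p = 0.347) and at -0.61 ± 0.250 in spleen (p = 0.0144, DESeq2 adjusted p = 0.999997) in the authors' deposited tables. The list of G1 cyclins and their kinases had medians of 0.11 and -0.03 over 6 genes. Of these, the D-type cyclin gene Ccnd1 was at 0.33 ± 0.148 in bone marrow (DESeq2 adjusted p = 0.443) and -0.28 ± 0.188 in spleen (DESeq2 adjusted p = 0.999997) in the authors' deposited tables. Inhibitors of cyclin-dependent kinases, which hold cells out of the cycle, had medians of -0.03 over the 5 genes listed for bone marrow and 0.06 over 7 in spleen, and none had an unadjusted p under 0.05 in either of the authors' deposited tables.

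**Figure D4:**
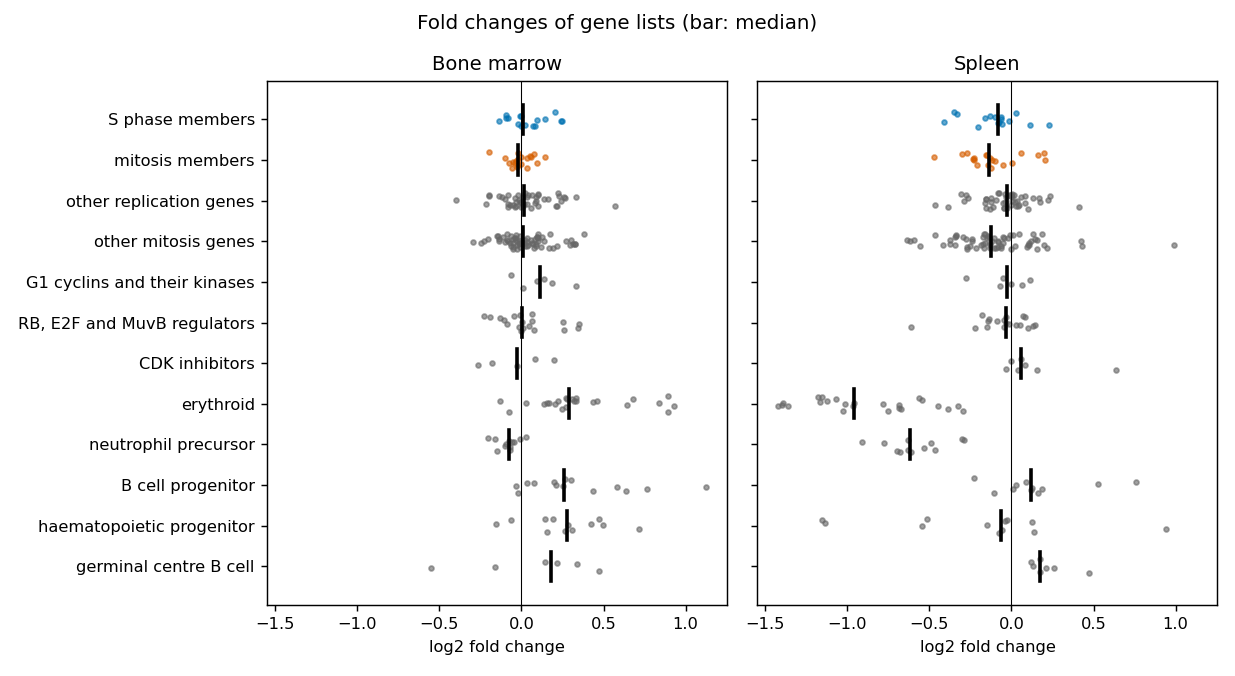
Log2 fold change (horizontal axis) of each gene in 12 lists (vertical axis; points, spread vertically at random) with the list median as a bar, from the authors' deposited tables, by tissue. The cell cycle lists have medians from -0.14 to 0.11, while erythroid markers have medians of 0.29 in bone marrow and -0.96 in spleen.

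The members lie on 16 chromosomes of GRCm38 (GENCODE M21). Ccnb2 and Kif23 are on chromosome 9, which also carries Cgas and Trex1, at 70407692 to 70421547 and 61915905 to 61946774, and Ccnb2 is the 1 member within 10 Mb of Cgas. No member lies within 10 Mb of Trex1. Cdc25a, the gene of a phosphatase that activates cyclin-dependent kinases, is among the other mitosis genes, lies 0.818 Mb from Trex1, and was named for that position. It was at 0.10 ± 0.0962 in bone marrow and -0.13 ± 0.137 in spleen, both taken from the authors' deposited tables. The last 500 bases of 5 members (Ccna2, Cdc20, Mcm7, Gins2 and Ccne2) overlap an exon of another gene on the other strand, and no member's overlap one on its own strand.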

How the data were processed

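RNA of suspended bone marrow and spleen cells (18 libraries in 4 groups, placed by their titles) was sequenced as QuantSeq forward libraries, as per the labels. Per the submitters' processing notes, the build was mm10 and the tools included STAR 2.6.1, bcl2fastq 1.8.4, DESeq2 and Partek. How tags were counted, on which strand and annotation, and how genes were filtered is not given in the sources used here. Both files hold tables of the authors' DESeq2 results. Mean normalized counts are a signal, the authors' average over a table's libraries, per the file headers. Deposited log2 fold changes carry standard errors, and the Wald score and ranking score derive from them, per the file headers. The p-value and Benjamini-Hochberg adjusted p-value are the authors', as deposited. Recomputed Wald scores, p-values and adjusted p-values matched the deposited ones.

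No count test was run, since values per library were not used here. From the tables were computed 95% normal intervals, list counts and medians, ranks, the difference between tissues (symbols joined through RefSeq synonyms) and ratios of standard errors. Of the steps, the difference between tissues and the coefficient of variation between libraries were tested on simulated data. For the difference, estimates were drawn with the normal errors that its test assumes, so that check could not probe this assumption. Calls use an adjusted p of 0.05, and alternatives were a filter at a mean of 20, centring on the median gene, a threshold of 0.1 and a weighted mean. All members may be named, and of every other list its called genes, or else the 2 with the smallest p in each tissue. Members and lists were chosen with earlier results of these data known. The mature neutrophil, monocyte, plasma cell, mature B cell and T cell lists had medians of -0.15, -0.34, -0.20, 0.03 and -0.05 in bone marrow and -0.02, 0.09, -0.20, -0.0083 and 0.06 in spleen. Scripts ran in Python 3.11.15 (scipy 1.17.1, numpy 2.4.6, pandas 2.3.3), with figures by matplotlib 3.10.9.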

Additional observations from a re-analysis of the deposited data

How the results depend on the processing

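The count of members past the threshold was 0 in bone marrow, spleen and their difference when p-values were adjusted over genes with a mean of at least 20, when fold changes were centred on the median gene, and at an adjusted p of 0.1. The smallest adjusted p of a member in bone marrow, that of Mcm7, was 0.130 with the filter and 0.141 with centring, on DESeq2 estimates. The phase medians moved by less than a typical member's standard error with centring, with a weighted mean and without the members on chromosome 9, a choice made after seeing the data. Centring subtracts the same value from every member (-0.0029 in bone marrow and 0.0057 in spleen), so it could not have moved them further. A typical member's standard error is the error of 1 gene and is larger than the phase medians themselves. Staying within it therefore does not show that a median kept its sign. The ratio of standard errors in spleen was 1.25 for S phase and 1.24 for mitosis with 400 neighbouring genes in place of 200, also chosen after seeing the data. Leaving out a library was not possible on these tables of results. No paired analysis was possible because the values used here are results per comparison and not per library. In spleen a median member needed a log2 fold change of 0.81 to be called, against 0.35 in bone marrow. The cause was not tested: mean counts were lower in spleen, standard errors exceeded those of genes of like mean, and the smallest called Wald statistic was higher (4.10 against 3.65).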
